A study of Homo sapiens with 29 samples.

Results

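The genes described here are 50 genes of mitosis and the kinetochore, chosen by symbol from the 28266 symbols of a count table of IMR90 ER:RAS fibroblasts. They cover the NDC80 complex (4 genes), other centromere proteins (6), the spindle checkpoint (4), the chromosomal passenger complex (4), mitotic kinases and cyclins with CDC25C (7), anaphase regulators (3), kinesins and other spindle proteins (10), chromosome structure (6), transcription factors (2) and cytokinesis (4). The choice was made by symbol, but with earlier results of these data known. All 50 were in the table, and all 50 were among the 13136 genes that passed the filter on low counts.

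In a dividing cell the kinetochore, a protein assembly built on centromeric chromatin, ties each chromosome to spindle microtubules through the NDC80 complex. The spindle checkpoint holds the cell in metaphase until every kinetochore is attached, and then CDC20 and separase let the sister chromatids part. The transcripts of these proteins accumulate late in the cell cycle, mainly through the MuvB complex with B-MYB (the product of MYBL2) and FOXM1 at promoters that carry a cell cycle homology region (CHR). In resting and senescent cells these promoters are held silent. Oncogene-induced senescence is a stable exit from the cell cycle.

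IMR90 is an established line of human lung fibroblasts. IMR90 ER:RAS cells carry a retroviral pLNC vector for oncogenic RASG12V fused to the estrogen receptor domain, which 4-hydroxytamoxifen (4OHT) switches on, and the labels give this line for all 3 groups. DMSO_siNT held cells given the solvent DMSO and non-targeting siRNA (siNT), referred to as growing cells. 4OHT_siNT held cells given 4OHT and siNT, referred to as senescent cells, and 4OHT_siSMARCA4 held cells given 4OHT and siRNA against SMARCA4, also named BRG1, which drives chromatin remodelling by SWI/SNF. Each group had 6 libraries, collected on day 7, made with 2 siRNAs numbered 2 and 4 and with a set name of a number and the letters V or VM, whose meaning is not given in the sources used here.

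Libraries of DMSO_siNT held between 9657309 and 13448183 counts, those of 4OHT_siNT between 13237672 and 15407710, and those of 4OHT_siSMARCA4 between 11382143 and 18039313. SMARCA4 was at a median of 219 counts-per-million (CPM) in DMSO_siNT (189 to 232), 297 in 4OHT_siNT (275 to 330) and 89.8 in 4OHT_siSMARCA4 (70.4 to 141), so the knockdown libraries lay below all others. Fibroblast markers were present, with COL1A1 at a mean of 10690 CPM and VIM at 6359 CPM in DMSO_siNT, whereas EPCAM, CDH1, PTPRC and CDH5 did not exceed 2.15 CPM in any library. The blood markers CD3E and LYZ stayed low as well, reaching 0.0692 and 0.219 CPM at most. Of the other endothelial markers, PECAM1 reached 0.955 CPM at most. VWF did not exceed 2.01 CPM in growing cells but reached 4.87 CPM in the knockdown library 4-3V. The remaining epithelial and blood markers examined were not near 0 in growing cells. In DMSO_siNT, KRT8 was at 11.04 to 17.7 CPM, KRT18 at 46.3 to 74.5, KRT19 at 32.7 to 52.1 and CD68 at 44.95 to 59.3. In 4OHT_siSMARCA4 against 4OHT_siNT, 6 of 10 fibroblast markers were called lower, beside 5.65% of all genes. All 4OHT_siNT libraries came from VM sets, whereas the knockdown group held 3 libraries of V sets, 2 of VM sets and 1 whose column header reads set 1VM, a set that no sample title with that siRNA has, and which is called unlabelled. The library labelled DMSO_siNT 4-2V stood apart from its group, with the lowest depth and with ESR1 at 29.5 CPM against 1034 to 1316 CPM in the other DMSO_siNT libraries, and HRAS at 436 CPM against 2165 to 2852 CPM. The fusion holds sequence of both kinds, and whether this library carries it at the level of the others was not tested. Counts of genes called, and shares of the growing level that move by over 1.5 times, are therefore also given without it.

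Promoters of these genes shared letters that the choice of genes did not use. RefSeq start sites (GRCh38.p14) were found for 44 of the 50 genes, all but CENPM, TTK, BIRC5, AURKA, TPX2 and FOXM1, and windows from 250 bases before to 50 bases after the start were searched on both strands for the CHR letters TTTGAA or TTCGAA and for CCAAT, the letters bound by NF-Y. The CHR letters were in 31 of 44 promoters (70.5%), against 16.6% of 27305 promoters of the table and 1 of 20 promoters (5.0%) of DNA replication genes. The CCAAT letters were in 72.7% of the 44 promoters, 35.7% of all promoters and 65.0% of the DNA replication promoters. Both kinds stood together in 54.5% of the 44 against 6.58% of all. The letters were not particular to the 50 genes. In 55 promoters from a separate list of other mitotic genes, 61.8% had the CHR letters, 63.6% had CCAAT and 45.5% had both. Among promoters with the CHR letters, 80.6% of those of the mitotic genes had them within 50 bases of the start, against 30.4% in the whole table. Promoters of 6 genes are shown to let the letters and their places be compared, 4 from genes called higher under SMARCA4 knockdown (CENPA, NCAPG, CDK1, SPC25) and 2 from genes that were not called (CCNB2, PLK1). Each runs 5′ to 3′ on the gene's strand up to the base before the start, and capitals mark the CHR and CCAAT letters read on either strand. The windows are chr2:26785806-26786055 (plus strand) for CENPA, chr4:17810729-17810978 (plus) for NCAPG, chr10:60778081-60778330 (plus) for CDK1, chr2:168890431-168890680 (minus) for SPC25, chr15:59104896-59105145 (plus) for CCNB2 and chr16:23678639-23678888 (plus) for PLK1.
CENPA: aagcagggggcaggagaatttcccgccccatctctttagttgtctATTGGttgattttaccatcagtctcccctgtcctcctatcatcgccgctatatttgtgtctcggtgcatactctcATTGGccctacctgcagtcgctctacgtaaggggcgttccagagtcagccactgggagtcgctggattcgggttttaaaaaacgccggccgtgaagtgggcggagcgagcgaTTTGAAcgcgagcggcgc
NCAPG: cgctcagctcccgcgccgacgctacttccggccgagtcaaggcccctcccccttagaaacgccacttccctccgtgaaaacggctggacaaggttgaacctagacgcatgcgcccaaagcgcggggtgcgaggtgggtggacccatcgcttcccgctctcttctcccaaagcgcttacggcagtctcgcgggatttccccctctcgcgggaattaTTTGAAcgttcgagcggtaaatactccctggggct
CDK1: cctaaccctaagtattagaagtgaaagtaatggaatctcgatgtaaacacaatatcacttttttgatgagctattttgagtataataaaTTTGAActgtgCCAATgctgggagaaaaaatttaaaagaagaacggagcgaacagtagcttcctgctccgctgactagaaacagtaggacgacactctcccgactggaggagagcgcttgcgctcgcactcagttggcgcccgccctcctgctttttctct
SPC25: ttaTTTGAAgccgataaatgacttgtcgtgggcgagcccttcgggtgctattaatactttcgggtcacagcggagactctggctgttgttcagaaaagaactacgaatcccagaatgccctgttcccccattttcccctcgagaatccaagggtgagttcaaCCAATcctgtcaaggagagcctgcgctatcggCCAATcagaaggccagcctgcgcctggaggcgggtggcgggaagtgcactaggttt
CCNB2: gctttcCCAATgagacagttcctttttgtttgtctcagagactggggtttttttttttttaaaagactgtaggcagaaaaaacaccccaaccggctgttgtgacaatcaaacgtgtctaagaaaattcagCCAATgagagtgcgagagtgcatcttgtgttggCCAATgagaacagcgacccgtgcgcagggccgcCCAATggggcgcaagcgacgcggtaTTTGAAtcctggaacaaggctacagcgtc
PLK1: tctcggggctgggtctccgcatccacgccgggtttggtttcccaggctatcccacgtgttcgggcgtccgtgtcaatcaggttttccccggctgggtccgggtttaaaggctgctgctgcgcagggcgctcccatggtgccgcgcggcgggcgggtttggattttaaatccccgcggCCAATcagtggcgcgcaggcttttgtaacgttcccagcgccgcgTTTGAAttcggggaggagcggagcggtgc

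In PLK1 and CCNB2 the CHR letters began 29 bases before the start, in CENPA 18 bases and in NCAPG 35 bases before it. NCAPG had no CCAAT, whereas CCNB2 had 4 matches. In CDK1 the letters began 161 bases before the listed start. SPC25 had a second match that began 3 bases before the start and ran past it, so that its capitals are not shown. Of the 8 genes called higher under knockdown, NDC80, SPC25, CENPA, NCAPG and CDK1 had the CHR letters in the window, and AURKB, CCNA2 and MYBL2 did not. A match is a description of letters, and binding was not measured here.

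**Figure D1:**
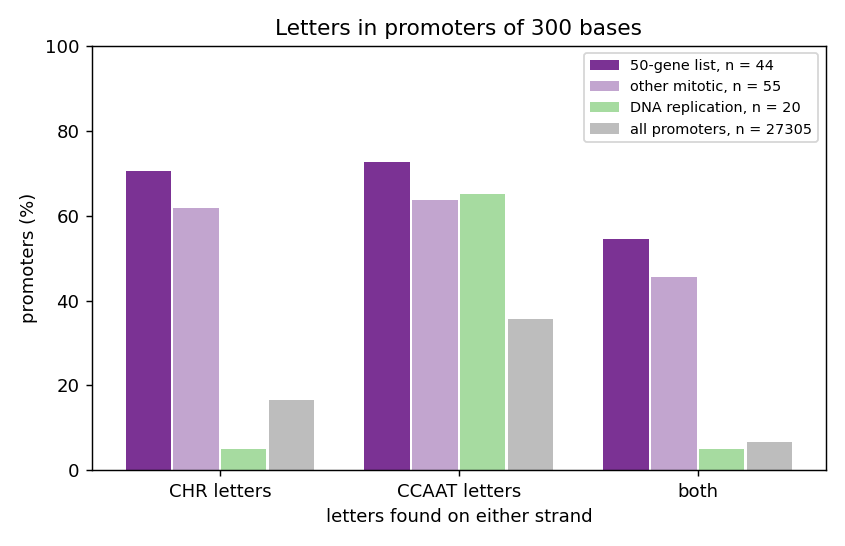
Percent of promoters (y axis) that hold the CHR letters, the CCAAT letters or both on either strand of the 300-base window, for 44 mitosis and kinetochore genes, 55 other mitotic genes, 20 DNA replication genes and 27305 promoters of the RefSeq table. The CHR letters stand in 70.5% of the first list, 61.8% of other mitotic promoters and 5.0% of DNA replication promoters. CCAAT stands in 72.7%, 63.6% and 65.0% of them.

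The comparison of 4OHT_siNT with DMSO_siNT asks how far the mitotic genes moved when RAS was switched on. Of the 50 genes, 49 were called lower at an adjusted p under 0.05 (edgeR quasi-likelihood test, Benjamini-Hochberg over 13136 genes) and none higher, beside 28.9% of all genes tested called lower. For 11 of the 50 (NDC80, NUF2, SPC24, SPC25, CENPA, CENPM, TTK, CDC25C, KIF2C, MYBL2 and CEP55) the filter on low counts was passed through DMSO_siNT alone. A call as lower was nearly built in for these 11, and their p-values are a description. Adjusted p-values given for single genes come from the same test. The median log2 fold change of the 50 genes was -4.27, and over all genes tested it was -0.05. Together the 50 genes took 0.161% of counts in DMSO_siNT and 0.0201% in 4OHT_siNT. Libraries of the groups did not overlap for 47 of 50 genes, beside 16.8% of all genes tested that were lower without overlap, and INCENP, ESPL1 and ECT2 were the genes whose values overlapped. In these bulk libraries, fewer cells in mitosis and less of a transcript per cell cannot be told apart. No source says that libraries came from separate cultures, so p-values measure the spread between these libraries.

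**Figure D2:**
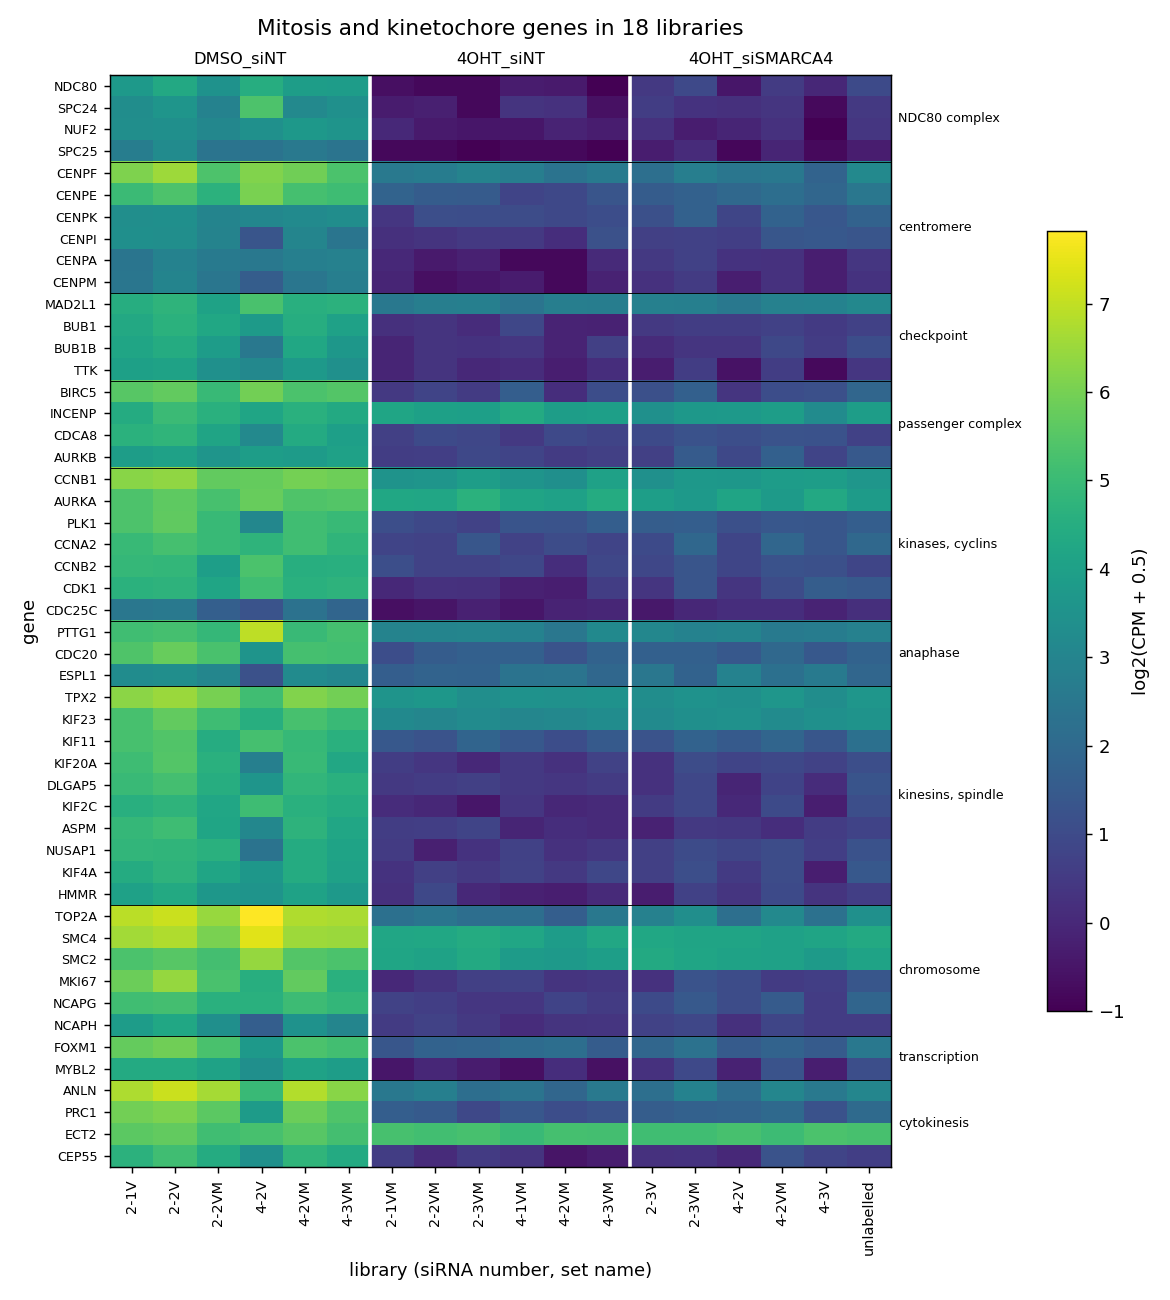
Level of each of the 50 genes, as log2(CPM + 0.5), in each of 18 libraries (columns, named by siRNA number and set) with genes grouped by role. DMSO_siNT stands apart from both 4OHT groups in nearly every row, and DMSO_siNT 4-2V departs from its group in both directions. ECT2 is close to level across groups. INCENP keeps 71.4% of its growing mean in 4OHT_siNT and 53.3% in 4OHT_siSMARCA4.

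The NDC80 complex, whose 4 subunits NDC80, NUF2, SPC24 and SPC25 form the microtubule-binding rod of the kinetochore, had the lowest median share of the growing level among the 10 role groups, 1.76%, and all 4 passed the filter on low counts through DMSO_siNT alone, so this place in the order is a description. NDC80 was at 10.9 CPM at the lowest, 14.4 at the median and 22.4 at the highest in DMSO_siNT, and at 0, 0.110 and 0.297 CPM in 4OHT_siNT. The groups did not overlap, no 4OHT_siNT library held more than 4 reads of NDC80, and the fitted log2 fold change was -6.67 ± 0.43 (SE, n = 6 and 6, adjusted p = 1.94e-10). SPC24 ranged from 6.998 to 40.9 CPM in DMSO_siNT, with a median of 9.91, and from 0.0739 to 0.742 CPM in 4OHT_siNT. Its highest value came from DMSO_siNT 4-2V, the other libraries of that group reaching 11.6 CPM. Mean CPM in 4OHT_siNT was 0.906% of the growing mean for NDC80, 0.818% for SPC25, 2.61% for SPC24 and 3.15% for NUF2. Without DMSO_siNT 4-2V the share of SPC24 was 4.07% (and 7.39% under knockdown, against 4.74% with it), and shares of the other 49 genes moved by at most 1.44 times.

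Centromere proteins fell as a group, all 6 being called lower. CENPF, a large kinetochore protein that builds up in G2, was at 40.0, 64.6 and 93.0 CPM (lowest, median, highest) in DMSO_siNT and at 4.64, 5.86 and 7.17 CPM in 4OHT_siNT. Every senescent library lay below every growing one, with a log2 fold change of -3.40 ± 0.24 (adjusted p = 5.64e-10). CENPE, the kinesin that moves chromosomes to the metaphase plate, was at 24.9, 35.1 and 66.1 CPM in DMSO_siNT and at 1.26, 2.20 and 2.99 CPM in 4OHT_siNT, again without overlap, with a log2 fold change of -4.21 ± 0.26 (adjusted p = 1.15e-10). CENPA, the histone H3 variant that marks centromeres, was left at 5.05% of its growing mean and CENPM at 4.96%. CENPK and CENPI, which like CENPM belong to the constitutive centromere network, kept 16.2% and 13.5%.

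Checkpoint genes fell in all 4 cases, but not equally. MAD2L1, which makes the inhibitor of CDC20, was at 16.4, 24.01 and 38.96 CPM in DMSO_siNT and at 4.82, 6.27 and 6.58 CPM in 4OHT_siNT, so that the groups stood apart by a log2 fold change of -2.09 ± 0.17 (adjusted p = 4.45e-09). BUB1, a checkpoint kinase, was at 13.5, 19.1 and 24.4 CPM in DMSO_siNT and at 0.391, 0.623 and 1.34 CPM in 4OHT_siNT, with no overlap and a log2 fold change of -4.77 ± 0.23 (adjusted p = 4.86e-12). In 4OHT_siNT, MAD2L1 kept 23.4% of its growing mean, BUB1B 4.79%, TTK 4.42% and BUB1 3.62%.

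In the chromosomal passenger complex, which corrects faulty attachments, the scaffold INCENP differed in size from its partners. BIRC5 (survivin) was at 30.2, 44.7 and 61.8 CPM in DMSO_siNT and at 0.614, 1.10 and 2.60 CPM in 4OHT_siNT, with a log2 fold change of -5.10 ± 0.32 (adjusted p = 1.29e-10). INCENP was at 17.6, 22.4 and 32.1 CPM in DMSO_siNT and at 14.4, 15.5 and 20.4 CPM in 4OHT_siNT. Its groups overlapped, and its log2 fold change of -0.49 ± 0.15 was called (adjusted p = 0.00916). AURKB, the kinase of the complex, kept 7.80% of its growing mean, CDCA8 (borealin) 6.61% and INCENP 71.4%.

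All 7 mitotic kinases, cyclins and the phosphatase CDC25C were lower in 4OHT_siNT. CCNB1, the cyclin B that activates CDK1 at mitotic entry, was at 51.5, 60.7 and 81.3 CPM in DMSO_siNT and at 9.96, 11.5 and 15.9 CPM in 4OHT_siNT. This was a fall without overlap, with a log2 fold change of -2.37 ± 0.14 (adjusted p = 9.79e-11). AURKA, the centrosomal Aurora kinase, was at 37.99, 42.7 and 54.7 CPM in DMSO_siNT and at 16.1, 18.4 and 24.2 CPM in 4OHT_siNT, the groups standing apart by a log2 fold change of -1.21 ± 0.13 (adjusted p = 1.96e-07). CDK1, the kinase itself, was left at 2.37% of its growing mean, CCNA2 at 4.58%, CCNB2 at 4.63%, PLK1 at 5.497% and CDC25C at 7.95%, whereas CCNB1 kept 19.4% and AURKA 43.2%. The PLK1 value of 8.01 CPM in DMSO_siNT 4-2V was the lowest of its group, the others ranging from 30.3 to 50.6 CPM.

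Of the anaphase genes, PTTG1 (securin) was at 28.6, 35.5 and 122 CPM in DMSO_siNT and at 5.12, 7.31 and 8.59 CPM in 4OHT_siNT, with a log2 fold change of -2.75 ± 0.30 (adjusted p = 3.31e-07). The value of 122 CPM came from DMSO_siNT 4-2V, and the other growing libraries reached 37.2 CPM, all still above the senescent ones. CDC20, the activator of the anaphase-promoting complex, was at 11.5, 37.7 and 54.01 CPM in DMSO_siNT and at 1.60, 2.61 and 2.89 CPM in 4OHT_siNT. CDC20 values did not overlap, and its log2 fold change was -3.92 ± 0.27 (adjusted p = 5.96e-10). ESPL1 (separase) kept 46.5% of its growing mean, with groups that overlapped through DMSO_siNT 4-2V at 1.79 CPM (log2 fold change -1.11 ± 0.30, adjusted p = 0.00397).

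Kinesins and spindle proteins fell in 10 of 10 cases, to between 2.14% and 23.7% of the growing mean. TPX2, which targets AURKA to the spindle, was at 34.4, 67.6 and 90.9 CPM in DMSO_siNT and at 9.83, 10.8 and 12.2 CPM in 4OHT_siNT. The libraries of the groups stood apart, with a log2 fold change of -2.60 ± 0.17 (adjusted p = 1.94e-10). KIF23, a motor of the central spindle, was at 22.5, 35.5 and 51.5 CPM in DMSO_siNT and at 7.79, 8.32 and 9.30 CPM in 4OHT_siNT, with a log2 fold change of -2.08 ± 0.15 (adjusted p = 8.24e-10). KIF2C, a kinesin that shortens microtubules at kinetochores, was left at 2.14%, KIF20A at 3.25%, DLGAP5 at 3.67%, ASPM at 3.75%, NUSAP1 at 3.89%, HMMR at 4.28%, KIF4A at 5.39% and KIF11, the motor that separates spindle poles, at 6.95%. TPX2 and KIF23 kept 16.5% and 23.7%.

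Among chromosome genes, TOP2A (topoisomerase II alpha) was at 88.0, 115 and 226 CPM in DMSO_siNT and at 2.59, 4.18 and 5.23 CPM in 4OHT_siNT, without overlap, for a log2 fold change of -4.97 ± 0.28 (adjusted p = 2.87e-11). SMC4, a condensin ATPase, was at 66.3, 94.4 and 172 CPM in DMSO_siNT and at 14.3, 18.4 and 21.3 CPM in 4OHT_siNT, also without overlap, for a log2 fold change of -2.51 ± 0.17 (adjusted p = 4.35e-10). Of the condensin genes chosen, the core genes SMC2 and SMC4 kept 32.9% and 17.5% of their growing means, and NCAPG and NCAPH of condensin I kept 3.35% and 8.02%. This order did not hold for condensin I as a whole. NCAPD2, a condensin I gene from the separate list of other mitotic genes, fell less than NCAPG and NCAPH. Its mean was 54.88 CPM in V sets and 50.85 CPM in VM sets of DMSO_siNT, and 19.88 CPM in 4OHT_siNT. TOP2A kept 3.18% and MKI67, the gene of the Ki-67 antigen, 1.86%. A test between these genes was not run.

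FOXM1 was at 13.2, 39.2 and 59.1 CPM in DMSO_siNT and at 2.04, 3.00 and 4.03 CPM in 4OHT_siNT, so that no senescent library reached a growing one (log2 fold change -3.70 ± 0.30, adjusted p = 5.06e-09). MYBL2 was at 10.04, 16.6 and 20.6 CPM in DMSO_siNT and at 0.148, 0.257 and 0.614 CPM in 4OHT_siNT, with a log2 fold change of -5.63 ± 0.40 (adjusted p = 6.95e-10). The 2 transcription factor genes kept 7.70% and 1.94% of their growing means.

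In the cytokinesis group, ANLN (anillin) was at 30.7, 103 and 137 CPM in DMSO_siNT and at 3.27, 5.07 and 6.43 CPM in 4OHT_siNT, which did not overlap and gave a log2 fold change of -4.25 ± 0.30 (adjusted p = 6.86e-10). PRC1, which bundles central spindle microtubules, kept 4.16% and CEP55, a midbody protein, 2.76%. ECT2, the exchange factor that activates RhoA at the cleavage furrow, was the exception among the 50 genes. It was at 34.5, 41.6 and 52.2 CPM in DMSO_siNT and at 30.9, 36.2 and 37.9 CPM in 4OHT_siNT. The ranges overlapped, the mean in 4OHT_siNT was 84.2% of the growing mean, and the log2 fold change of -0.25 ± 0.11 did not pass the test (adjusted p = 0.0574).

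Counted by share, 37 of 50 genes were under 10% of the growing mean in 4OHT_siNT. The smallest fall belonged to ECT2, then INCENP, ESPL1, AURKA and SMC2. Without DMSO_siNT 4-2V all 50 genes were called lower, ECT2 included, the median log2 fold change was -4.35, 37 genes were again under 10%, and 48 had no overlap. No share of all genes is given for the counts under 10% or for this fit, so these counts describe the 50 genes alone.

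**Figure D3:**
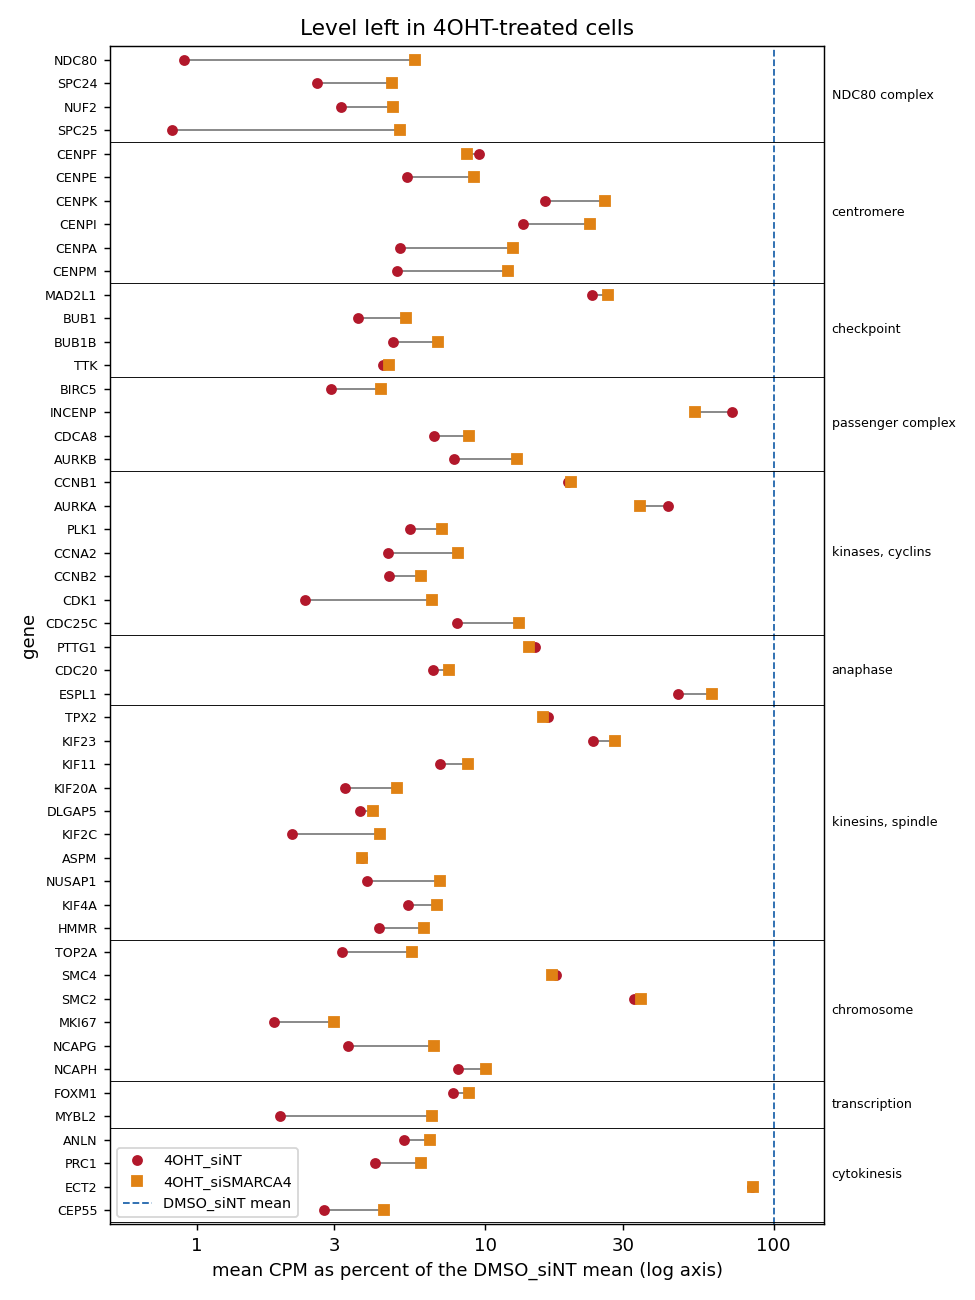
Mean CPM of each gene in 4OHT_siNT (circles) and 4OHT_siSMARCA4 (squares) as percent of its DMSO_siNT mean, on a log axis, with genes grouped by role. All points lie left of 100%, from 0.818% for SPC25 to 84.2% for ECT2 in 4OHT_siNT, and the longest lines belong to NDC80 and SPC25.

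The comparison of 4OHT_siSMARCA4 with 4OHT_siNT asks whether loss of SMARCA4 moved these genes in senescent cells. Of the 50 genes, 8 (16%) were called higher and none lower, beside 4.99% of all genes called higher and 5.65% called lower. The genes called higher were NDC80, SPC25, CENPA, AURKB, CDK1, CCNA2, NCAPG and MYBL2. Estimates were above 0 for 43 of 50 genes, with a median log2 fold change of 0.50 against 0.01 over all genes tested. No gene had groups without overlap, beside 5.12% of all genes that were higher without overlap. At an unadjusted p under 0.05 there were 16 of the 50 genes, including INCENP and AURKA, whose estimates were negative. Of the 50, 11 passed the filter on low counts through their DMSO_siNT reads alone, among them NDC80, SPC25, CENPA and MYBL2, so that these calls rest on few reads in both groups compared. DESeq2 called 13 of the 50 higher, beside 6.86% of all genes. The count of 8 moved with single libraries, to 14 without DMSO_siNT 4-2V, to 3 without the knockdown library 2-3VM or 4-2VM, to 4 without the unlabelled one and to 5 without any of the senescent libraries 2-1VM, 2-2VM, 4-1VM, 4-2VM and 4-3VM. Over the 18 fits that each left out 1 library, NDC80, CDK1 and NCAPG were called in all, SPC25 in 16, MYBL2 in 12, CENPA in 11, CCNA2 in 7 and AURKB in 6.

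NDC80 (chr18:2571557-2616635, plus strand, GENCODE v44 on GRCh38) was at 0, 0.110 and 0.297 CPM in 4OHT_siNT and at 0.224, 0.909 and 1.45 CPM in 4OHT_siSMARCA4. The lowest knockdown library, 4-2V, lay within the senescent range, and the other 5 lay above it. Its log2 fold change was 2.53 ± 0.52 (SE, n = 6 and 6, adjusted p = 0.00388). Over the group, reads rose from 12 to 68, a ratio of rates of 5.92 with a 95% interval of 3.18 to 12.01 (exact binomial, counting error only). SPC25 (chr2:168834132-168913371, minus strand), its partner in the rod, was at 0, 0.0687 and 0.0742 CPM in 4OHT_siNT and at 0.0561, 0.319 and 0.558 CPM in 4OHT_siSMARCA4. The V library 4-2V fell within the senescent range. The V library 4-3V, at 0.0825 CPM, lay just above it on 1 read, no more than single senescent libraries held. The log2 fold change was 2.34 ± 0.63 (adjusted p = 0.0208). SPC25 had 4 reads over all 6 senescent libraries and 22 over the knockdown libraries, a ratio of 5.74 with an interval of 1.95 to 22.9, and since no senescent library exceeded 1 read the fitted value depends on the fit's prior count. The remaining subunits were not called, SPC24 at 0.83 ± 0.64 (adjusted p = 0.456) and NUF2 at 0.58 ± 0.42 (adjusted p = 0.421).

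CENPA (chr2:26764289-26801067, plus strand) was at 0.0682, 0.323 and 0.547 CPM in 4OHT_siNT and at 0.330, 0.768 and 1.11 CPM in 4OHT_siSMARCA4. The knockdown library 4-3V lay inside the senescent range and the other 5 above it, with a log2 fold change of 1.29 ± 0.37 (adjusted p = 0.0315). Estimates of CENPM (1.24, adjusted p = 0.0591), CENPK (0.67, adjusted p = 0.0567) and CENPE (0.76, adjusted p = 0.072) did not pass the test, nor did CENPI at 0.77 (adjusted p = 0.21) or CENPF at -0.13 (adjusted p = 0.78). No checkpoint gene was called, the estimates running from 0.03 for TTK to 0.55 for BUB1.

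AURKB (chr17:8204733-8210600, minus strand) was at 0.955, 1.07 and 1.40 CPM in 4OHT_siNT and at 1.10, 1.83 and 2.77 CPM in 4OHT_siSMARCA4. Its 3 V libraries (1.10, 1.40 and 1.24 CPM) lay within the senescent range, whereas the VM and unlabelled libraries (2.39, 2.77 and 2.26 CPM) lay above it. The log2 fold change over all libraries was 0.71 ± 0.22 (adjusted p = 0.0432). BIRC5 at 0.57 ± 0.34 (adjusted p = 0.32) and CDCA8 at 0.40 ± 0.26 (adjusted p = 0.37) were not called, and INCENP, at 8.99, 12.7 and 14.5 CPM under knockdown, had an estimate of -0.42 ± 0.15 (adjusted p = 0.0769).

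CDK1 (chr10:60778331-60794852, plus strand) was at 0.341, 0.587 and 1.02 CPM in 4OHT_siNT and at 0.785, 1.77 and 2.56 CPM in 4OHT_siSMARCA4. The V libraries 2-3V and 4-2V lay within the senescent range and the other 4 above it. The log2 fold change was 1.44 ± 0.33 (adjusted p = 0.00791), on 49 reads over the senescent group and 126 over the knockdown group. CCNA2 (chr4:121816444-121823883, minus strand), the cyclin of S phase and early mitosis, was at 1.18, 1.24 and 2.07 CPM in 4OHT_siNT and at 1.29, 2.67 and 3.47 CPM in 4OHT_siSMARCA4, its 3 V libraries overlapping the senescent range. Its log2 fold change was 0.80 ± 0.24 (adjusted p = 0.0415). The B cyclins were not called, CCNB1 at 0.03 ± 0.14 (adjusted p = 0.932) and CCNB2 at 0.37 ± 0.26 (adjusted p = 0.416), nor were PLK1 at 0.36 ± 0.34 (adjusted p = 0.563) and AURKA at -0.33 ± 0.13 (adjusted p = 0.119).

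NCAPG (chr4:17810979-17844865, plus strand) was at 0.813, 0.988 and 1.23 CPM in 4OHT_siNT and at 0.990, 1.90 and 3.15 CPM in 4OHT_siSMARCA4. One library, 4-3V, lay within the senescent range and 5 above it, for a log2 fold change of 0.96 ± 0.24 (adjusted p = 0.0138). TOP2A, at 4.21, 7.54 and 10.3 CPM under knockdown, had an estimate of 0.80 ± 0.26 that did not pass (adjusted p = 0.0566). SMC2 (0.07), SMC4 (-0.04), NCAPH (0.31) and MKI67 (0.69) were not called. MYBL2 (chr20:43667019-43716495, plus strand) was at 0.148, 0.257 and 0.614 CPM in 4OHT_siNT and at 0.330, 1.07 and 1.90 CPM in 4OHT_siSMARCA4, with V libraries 4-2V and 4-3V inside the senescent range. The fitted change of MYBL2 was 1.67 ± 0.46 on the log2 scale (adjusted p = 0.0237), on 27 reads in the senescent and 81 in the knockdown group, whereas FOXM1 stood at 0.18 ± 0.31 (adjusted p = 0.772). No anaphase, kinesin, spindle or cytokinesis gene was called, and the largest estimate among them was 0.97 for KIF2C (adjusted p = 0.0901).

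Since the knockdown libraries were not balanced over the set letters, levels are also given by letters. Summed over the 50 genes, the level was 181 to 220.5 CPM in 4OHT_siNT, 204, 208 and 208 CPM in the V knockdown libraries, 230.0 and 229.7 CPM in the VM ones and 255 CPM in the unlabelled one. SMARCA4 itself was at 125, 141 and 92.7 CPM in the V libraries, 87.0 and 70.4 CPM in the VM libraries and 78.8 CPM in the unlabelled one. The sums of the V libraries lay inside the senescent range and those of the other 3 above it. For 20 of 50 genes the VM and unlabelled knockdown libraries all lay above every senescent library, beside 17.1% of all genes. In the V libraries this held for 2 of 50 genes, CDCA8 and ESPL1, beside 8.10% of all genes.

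With V and VM libraries as separate levels of the fit and the unlabelled library left out, an alternative chosen after seeing the data, 10 of 50 genes were higher in VM knockdown libraries than in senescent cells, beside 3.39% of all genes. None of the 50 was called higher in V knockdown libraries, beside 1.22% of all genes, with a median log2 fold change of 0.19. An unadjusted p under 0.05 (edgeR) was reached by 6 genes, going both ways. Estimates of NDC80, CENPA and CDK1 were above 0, and those of CENPF, TTK and INCENP were below 0. Compared directly, VM and V knockdown libraries differed in no call among the 50 genes (edgeR, 13 at an unadjusted p under 0.05, 0.00751% of all genes called higher), with a median log2 difference of 0.42 and 44 of 50 estimates above 0. In growing cells the estimates of VM against V libraries leaned the other way, 9 of 50 being above 0 with a median of -0.17, and none was called (edgeR, 7 at an unadjusted p under 0.05, 0.128% of all genes called higher and 0.24% lower). Within VM sets alone, where the senescent and knockdown libraries carry the same letters, 13 of 50 were called higher and 1, AURKA, lower, beside 8.76% of all genes called higher and 12.2% lower. No V library of 4OHT_siNT was analysed, so a comparison within V sets was not possible, and the set letters and the depth of the knockdown cannot be told apart.

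**Figure D4:**
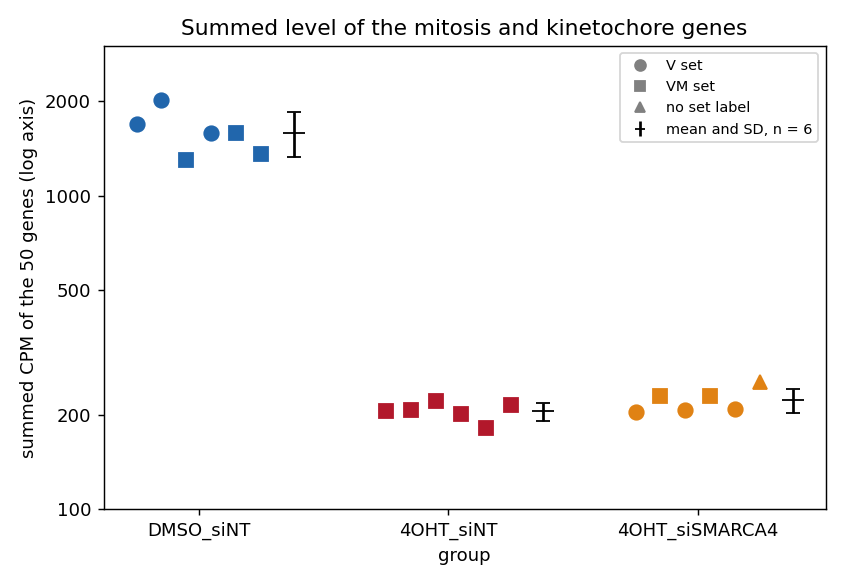
Summed CPM of the 50 genes in each library on a log axis, by group, with circles for V sets, squares for VM sets, a triangle for the unlabelled library and bars for the mean and SD of 6 libraries. DMSO_siNT libraries lie between 1300 and 2014 CPM, 4OHT_siNT between 181 and 220.5 CPM, and the VM and unlabelled knockdown libraries are the only ones above that range among 4OHT-treated cells.

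Taken by siRNA, 3 of 50 genes (NCAPG, NDC80, SPC25) were called higher with siRNA number 2, beside 2.83% of all genes, and none with number 4, beside 1.54% of all genes and with 6 at an unadjusted p under 0.05. The median log2 fold change of the 50 genes was 0.54 with number 2 and 0.40 with number 4. The siRNA numbers were not balanced over the set letters. Knockdown libraries of number 2 were 2-3V, 2-3VM and the unlabelled one, and those of number 4 were 4-2V, 4-3V and 4-2VM. The difference between the siRNAs was called for none of the 50 genes (edgeR interaction, 2 at an unadjusted p under 0.05, BIRC5 and FOXM1, 0.0146% of all genes called). CDK1 was at 1.42 ± 0.49 with number 2 and at 1.45 ± 0.50 with number 4, and NDC80 at 3.58 ± 0.69 and 1.36 ± 0.69, the difference for NDC80 being 2.22 ± 1.08 (adjusted p = 0.709). The siNT controls of the 2 numbers differed in no call among the 50 genes in senescent cells (none at an unadjusted p under 0.05, 0.0732% of all genes called). In growing cells none was called either (edgeR, 0.0512% of all genes called), but 13 of 50 were at an unadjusted p under 0.05, and the median log2 difference of number 2 from number 4 was 0.28. The growing libraries of number 4 include DMSO_siNT 4-2V, which stood apart from its group.

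The comparison of 4OHT_siSMARCA4 with DMSO_siNT shares its libraries with both comparisons described so far, and asks how far from growing cells the genes remained. Of 50 genes, 48 were called lower, beside 27.3% of all genes tested, with a median log2 fold change of -3.79. The count includes the 11 genes that passed the filter through DMSO_siNT alone. ESPL1 (-0.71 ± 0.29, adjusted p = 0.0507) and ECT2 (-0.24 ± 0.11, adjusted p = 0.073) were not called. Without DMSO_siNT 4-2V all 50 were called, beside 30.5% of all genes called lower in that fit. Values did not overlap for 47 of 50 genes, beside 15.3% of all genes lower without overlap. Every gene called higher under knockdown was still far from its growing mean. NDC80 stood at 5.72% of it, SPC25 at 5.08%, CENPA at 12.4%, AURKB at 12.8%, CDK1 at 6.55%, CCNA2 at 8.07%, NCAPG at 6.63% and MYBL2 at 6.54%. Under 10% of the growing mean were 32 of the 50 genes, and the summed level was 222 ± 20 CPM (SD, n = 6) against 1587 ± 257 CPM in DMSO_siNT.

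Beside the 50 genes, 73 other genes of mitosis were examined as a separate list. In 4OHT_siNT against DMSO_siNT, 63 of 73 were called lower (beside 28.9% of all genes) and 1 higher (FZR1, named after its value was seen), the median of their log2 fold changes being -2.21. Genes of this list that passed the filter through DMSO_siNT alone were not counted, and for such genes a call as lower is nearly built in. With SMARCA4 knocked down, 6 of 73 passed the test as higher and 2 as lower, the median being 0.20, beside 4.99% and 5.65% of all genes. SKA1, of the kinetochore SKA complex that works beside NDC80, was at means of 6.28, 0.0969 and 0.463 CPM in DMSO_siNT, 4OHT_siNT and 4OHT_siSMARCA4 (knockdown log2 fold change 2.12 ± 0.59, adjusted p = 0.0259). This call rests on few reads, no 4OHT_siNT library holding more than 3 of SKA1. The V knockdown libraries 4-2V (0.168 CPM) and 4-3V (0.0825 CPM) lay within the senescent range of 0 to 0.223 CPM. CENPQ, of the constitutive centromere network, rose by 0.98 ± 0.31 (adjusted p = 0.0481), TROAP by 0.92 ± 0.27 (adjusted p = 0.0335) and the kinase gene MELK by 0.75 ± 0.20 (adjusted p = 0.0186). CKS2, which makes a CDK-binding subunit, rose by 0.92 ± 0.19 (adjusted p = 0.00414), from 34.4 to 65.3 CPM, above its growing mean of 41.7 CPM, and WEE1, which makes the kinase that inhibits CDK1, by 0.48 ± 0.13 (adjusted p = 0.0189). CENPO (-0.42 ± 0.13, adjusted p = 0.0397) and CIT, the citron kinase of cytokinesis (-1.17 ± 0.35, adjusted p = 0.0366), fell.

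Near-identical copies of the 50 genes held few reads. PTTG2 was at 0 in every library, and PTTG3P and KIF4B did not exceed 0.165 CPM, beside PTTG1 and KIF4A. Reads that a copy shares with its parent could still have been dropped or split in counting, whose settings are not given in the sources used here.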

How the data were processed

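The data were RNA sequencing counts of IMR90 ER:RAS cells in 18 libraries, 6 in each of 3 groups. Per the methods of the study and the labels, total RNA was enriched for polyadenylated RNA, made into strand-specific single-end libraries and aligned with STAR (2.7.8a in the submitters' processing notes) to hg38. The counting program, its annotation and its strand setting are not given in the sources used here. The authors deposited counts of reads for each gene symbol without normalization, in 2 lanes for each library, which were summed. Of 29 labelled samples 17 matched a column, 1 further column, whose header reads set 1VM but which no sample title with its siRNA matches, entered its group without a set, and the remaining samples were not analysed here.

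Genes were filtered with filterByExpr (minimum count 10), which kept 13136 of 28266 symbols and 99.9% of counts. They were scaled with TMM and tested in 1 fit of all libraries, with no covariate (edgeR 4.0.16, quasi-likelihood test, R 4.3.3), Benjamini-Hochberg adjustment over all genes tested, and a call at an adjusted p under 0.05. The common biological coefficient of variation was 23.3%. Standard errors were derived from the F statistic. Levels are CPM on the TMM scale. Intervals on ratios of pooled reads are exact binomial at 95% and, like a floor of 3 counts, cover counting error only. Simulated counts with known changes were used to test the scripts. No pair of libraries within a group agreed within sampling noise.

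The 50 genes and all other lists were chosen with earlier results of these data known, so no p is given over a list. Any of the 50 may be named. Values by library are given for those called under knockdown and for the 1 or 2 genes of each role with the highest mean CPM in DMSO_siNT, and other genes are named from the lists where called under knockdown or where a control or copy was needed. Alternatives were DESeq2 1.42.0, its size factors in edgeR, no filter beyond 1 count, the set label as a block, only the groups compared, only VM sets, each siRNA number alone, an adjusted p under 0.01 and leaving out each library. Fits of VM sets with the unlabelled library, of V sets, of 2 groups without DMSO_siNT 4-2V, and with V and VM as separate levels were added after seeing the data. Promoter windows came from the RefSeq table (GRCh38.p14), the first listed start of each gene being used (7 of the 50 genes had more than 1), and gene coordinates from GENCODE v44.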

Additional observations from a re-analysis of the deposited data

Results flagged for a closer look

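In groups of 6 libraries, a value was taken to stand apart when its gap to the nearest other library took more than 0.625 of the spread of its group in log2(CPM + 0.5), by Dixon's rule. This was tested in 156 sets of values, for the 50 genes and for their summed and mean level in 3 groups, and 13 were found, against about 7.8 by chance (1 in 20). Of the 13, 9 were values of DMSO_siNT 4-2V.

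That library held the highest value of its group for SPC24 (40.9 CPM, the others 6.998 to 11.6), PTTG1 (122 CPM, the others 28.6 to 37.2) and SMC2 (85.9 CPM, the others 35.9 to 45.4). It held the lowest for PLK1 (8.01 CPM, the others 30.3 to 50.6), CDC20 (11.5 CPM, the others 35.4 to 54.01), ESPL1 (1.79 CPM, the others 7.71 to 9.88), NUSAP1 (4.66 CPM, the others 16.8 to 27.2), FOXM1 (13.2 CPM, the others 34.8 to 59.1) and PRC1 (13.9 CPM, the others 41.4 to 68.1). Its summed level of the 50 genes, 1585 CPM, was within the range of the group.

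The remaining 4 values came from 4OHT-treated cells. SPC24 was at 0.0825 CPM in 4OHT_siSMARCA4 4-3V, the other libraries at 0.673 to 1.02 CPM. CENPI was at 1.80 CPM in 4OHT_siNT 4-3VM (the others 0.614 to 0.890), CENPK at 0.801 CPM in 4OHT_siNT 2-1VM (the others 1.36 to 1.66) and ECT2 at 30.9 CPM in 4OHT_siNT 4-1VM (the others 35.5 to 37.9). What set these libraries apart was not tested.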

How the results depend on the processing

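The fall of these genes in 4OHT-treated cells kept its direction under the alternatives run, and most of its calls. ESPL1 was no longer called in 4OHT_siNT once a replicate block for the set was added (-1.01, adjusted p = 0.0859, edgeR) or with siRNA number 4 alone (-0.60, adjusted p = 0.203), nor INCENP with siRNA number 4 alone (-0.29, adjusted p = 0.257). The number called lower was 47 to 50 of 50 in 4OHT_siNT against DMSO_siNT and 48 to 50 in 4OHT_siSMARCA4 against DMSO_siNT, and leaving out each library in turn gave 49 to 50 and 48 to 50. The number called higher under knockdown, 8, moved much more. It was 13 with DESeq2 (with INCENP lower), 13 in VM sets alone, 21 in VM sets with the unlabelled library (13.6% of all genes called higher, 16.7% lower), 3 with siRNA number 2, 0 with siRNA number 4, 0 in V knockdown libraries fitted as a separate level and 2 at an adjusted p under 0.01. A fit that took set labels as a replicate block called 0, at a median log2 fold change of 0.54. Deviations of libraries with the same set name had a median correlation of 0.0659 over 15 pairs (-0.319 to 0.353, 5 of them over 0.1). Over 81 pairs with different set names the correlations ran from -0.318 to 0.286. Ranges this wide cannot decide whether the sets are a pairing, and the block fit is given as an alternative.

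Leaving out each library gave 3 to 14 genes called higher under knockdown. The highest, 14, came without DMSO_siNT 4-2V (11.7% of all genes then called higher), and it was 12 without the knockdown library 4-2V and 11 without 4-3V. No estimate called in either fit changed sign. In the fit of only the 2 groups, 39 of the 50 genes could be tested and 7 were higher, beside 13.3% of all genes, with NDC80, SPC25, MYBL2 and CENPA left out by the filter. The cause of these changes was not tested. Depth limits the low genes most: 8 of the 50 stayed under 0.752 CPM, the level of the filter on low counts, in every 4OHT_siNT library.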

Other observations

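Genes of DNA replication, the phase before mitosis, were examined as a further list. All 24 of the list were called lower in 4OHT_siNT against DMSO_siNT, beside 28.9% of all genes, their log2 fold changes having a median of -1.91. How many of these passed the filter through DMSO_siNT alone, which nearly builds in such a call, was not counted. Knockdown raised 2 of 24 and lowered 1 by the same test, and the median was -0.01, beside 4.99% of all genes called higher and 5.65% lower. RRM2, the small subunit of ribonucleotide reductase, was at means of 69.4, 4.68 and 9.86 CPM in DMSO_siNT, 4OHT_siNT and 4OHT_siSMARCA4 (knockdown log2 fold change 1.07 ± 0.23, edgeR adjusted p = 0.00499). CCNE2, a cyclin E, was at 6.58, 0.378 and 0.982 CPM (1.35 ± 0.35, adjusted p = 0.0176), and CDT1, which licenses origins, at 17.5, 4.64 and 3.19 CPM (-0.54 ± 0.14, adjusted p = 0.0205). A test of the difference between the lists was not run.

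A list of 14 genes held subunits of the MuvB and DREAM complexes and further E2F factors outside them (E2F1, E2F2, E2F7 and E2F8). Of the 14, 12 could be tested. In 4OHT_siNT against DMSO_siNT, 3 were called higher (E2F7 at 2.55, LIN37 at 0.58 and E2F4 at 0.39 on the log2 scale) and 5 lower (RBL1 at -2.54, E2F1 at -1.15, LIN9 at -0.89, LIN52 at -0.77 and LIN54 at -0.48). Over all genes, 23.9% were called higher and 28.9% lower. These genes were named after their values were seen. Under knockdown none was called (edgeR, 4 at an unadjusted p under 0.05), beside 4.99% of all genes called higher and 5.65% lower.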
